A study of Mus musculus with 6 samples.

Results

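The DEAD-box and DEAH-box helicases, named after a run of amino acids in their ATP-binding core, use ATP to open RNA duplexes or to strip proteins from RNA. They act at nearly every step in the life of an RNA: remodelling of the spliceosome, assembly of ribosomal subunits in the nucleolus, export of messenger RNA, start of translation, small RNA processing and decay. In liver, as in other tissues, many of them are made in all cells. The family was taken as every probe set annotated to a single gene symbol made of Ddx or Dhx and a number, apart from Ddx3x, Ddx3y, Ddx58 and Dhx58. This gave 104 of the 45101 probe sets of the array, reading 48 of 18193 genes, of which 33 are Ddx and 15 are Dhx genes. No filter on low values was applied, so all 104 were tested. Each value describes a probe set, a group of short probes against a transcript or, for some probe sets, related ones. Levels of different probe sets were not read as amounts of different transcripts. They were compared to pick the probe set of highest mean for each gene, to sum markers and to place values beside the array median or lower quartile.

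Liver RNA came from 3 male B6.Alb/cre,Pdss2loxP/loxP mice, called mutants here, and from 3 male B6.Pdss2loxP/loxP mice, called controls, with 1 Affymetrix mouse array for each animal. The controls carry the same loxP-flanked Pdss2 alleles as the mutants and lack the cre transgene. Cre made from the albumin promoter acts in hepatocytes, so that other liver cells of the mutants keep Pdss2, a gene needed to make the isoprenoid tail of coenzyme Q, the electron carrier of mitochondria. Mutants 1, 2 and 3 were 176, 178 and 224 days old and controls 1, 2 and 3 were 209, 213 and 140 days old, and the labels name control 1 as the concurrent control of mutant 3. No animal received a treatment, food was taken away some hours before death, and the genotypes were kept in different cages, so that cage and genotype cannot be told apart. The question of the comparison was which transcripts differ in liver when hepatocytes cannot make coenzyme Q. Each difference is the mean of the mutants minus that of the controls in log2 units, in which 1 is a doubling, and a gene or probe set is called higher or lower at a Benjamini-Hochberg adjusted p under 0.05 from limma, a linear model fitted over all genes or probe sets.

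Some facts of the arrays bear on every value. The brightest of the 3 Pdss2 probe sets read 6.94, 6.88 and 7.05 in mutants and 7.46, 7.47 and 7.56 in controls, a difference of -0.54 (standard error 0.17, adjusted p = 0.0792 from limma), and the other probe sets differed by 0.40 and 0.35. Their positions relative to the exon that cre removes were not known here, so they do not check the deletion. Over 57 listed genes of oxidative phosphorylation, by the brightest probe set, 5 were called lower and 1 higher, and the median difference was -0.68. Over their 119 probe sets the median was -0.86, with 2 called higher and 1 lower. The direction of these medians is opposite to the one the study gives for this pathway. The study's result came from an enrichment test of a KEGG gene set, which is another measure and another set of genes. Whether the group labels or the sign of the study's comparison were exchanged was not tested. An exchange of the labels would turn every higher and lower given here, whereas a sign exchanged in the study alone would turn none. The bacterial transcripts BioB, BioC and BioDn, added to every sample before hybridization, read higher on all mutant arrays, by 1.81, 1.66 and 1.43. For Gapdh, the probe set at the 3′ end minus that at the 5′ end, which falls with longer labelled RNA, was 0.45, -1.06 and -1.78 in mutants against 2.31, 2.02 and 2.30 in controls, whereas that of Actb overlapped between the groups. The part of these differences in the results was not tested. The median difference over all probe sets was 0.17, and 0.13 over the helicases. With each array centred on its median they were 0.01 and -0.03, and the centring itself brings the first of these near 0.

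Hepatocyte markers were present in every mouse, since the summed level of 12 genes ran from 16.27 to 16.60 in mutants and from 16.61 to 16.64 in controls on the log2 scale, and none of the 12 was called. Of 12 endothelial markers, 4 were higher in mutants (Stab1, Stab2, Ehd3 and Ptprb), where 4.92% of all genes were called higher. The sum over the 12 ran from 12.53 to 13.28 in mutants and from 11.50 to 12.24 in controls. Of 11 Kupffer cell markers Clec4f was higher (summed level 11.43 to 12.14 in mutants, 10.41 to 11.38 in controls), and of 11 stellate cell and cholangiocyte markers Krt19 was higher (11.73 to 12.03 against 11.54 to 12.07). None of 9 lymphocyte markers (summed level 9.33 to 9.53 in mutants, 9.01 to 9.24 in controls) or 12 proliferation markers (9.91 to 10.06 against 9.67 to 10.03) was called. No endothelial marker lay below the lower quartile of all probe sets, and 1 Kupffer, 1 lymphocyte and 2 proliferation markers did. In bulk liver, fewer cells of a type and less RNA per cell cannot be told apart, and the part of other cell types in the helicase values was not tested.

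The family was not tested as a set, and its shares are given beside those of the whole array. At the level of probe sets, 4 of 104 helicase probe sets (3.85%) were called, against 1.99% of all 45037 tested, and those of Ddx25, Ddx11, Ddx39b and Dhx36 were all higher in mutants (1.25% of all probe sets were called higher). No helicase probe set was called lower, where 0.746% of all were, and 11 had a lower value at an unadjusted p under 0.05 (10.6%, against 9.54% of all). The mutants lay wholly above the controls on 22 helicase probe sets (21.2%, against 21.2% of all) and wholly below on 14 (13.5%, against 10.7%). By the brightest probe set, they lay wholly above for 10 of 48 genes (20.8%, against 23.3%) and wholly below for 8 (16.7%, against 14.1%). When each gene was represented by its brightest probe set, 6 of 48 genes (12.5%) were called, against 9.03% of all 18193 genes. Of these, 5 were higher (10.4%, against 4.92%) and 1, Ddx50, was lower (2.08%, against 4.11%). The brightest probe set was chosen by its mean over both groups, so the difference under test could affect the choice. In controls, the chosen probe sets of Ddx11 and Ddx60 were dimmer than the other ones (means 6.37 against 6.52 and 5.25 against 5.42). In mutants, that of Ddx50 was dimmer than another one (7.17 against 7.78). The count of helicase genes called moved with that over all genes when a mouse was left out. Without mutant 1, 13 helicase genes of 3020 in all were called, and without control 3 it was Ddx25 of 255 in all. Without mutant 2, mutant 3, control 1 or control 2 no helicase gene was called, of 106, 157, 5 and 0 in all. The difference of Ddx25 stayed between 1.49 and 1.89 when any mouse was left out, that of Ddx11 between 1.27 and 1.57 and that of Ddx50 between -1.36 and -0.95. With the mean of the probe sets of each gene, Ddx25 was called, of 502 in all. Ddx25 has 1 probe set, so its values are the same in this setting, which does not test it.

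**Figure D1:**
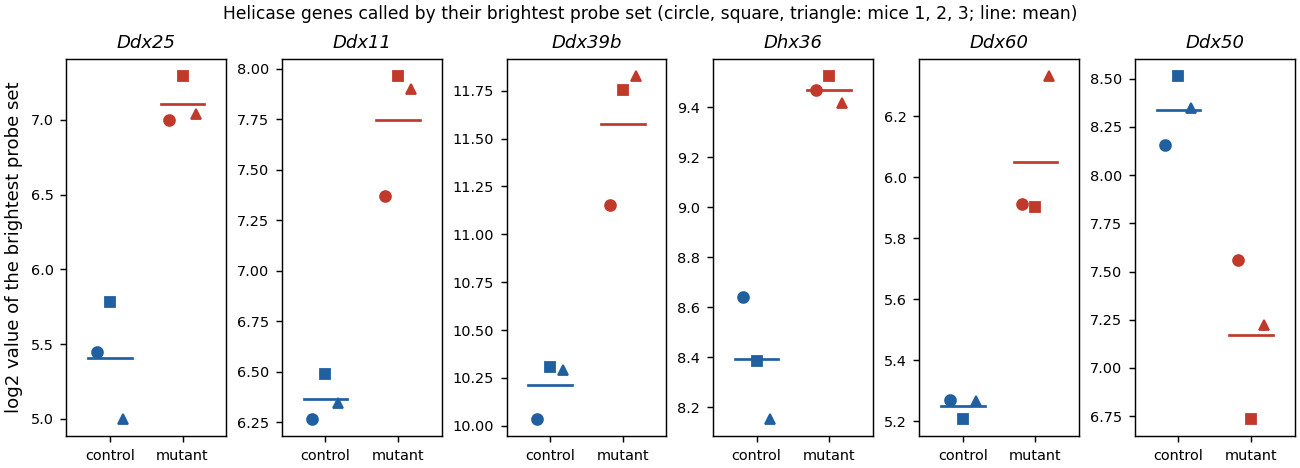
Log2 values of the brightest probe set (vertical axis, with its own range in each panel) of the 6 called helicase genes in each control (blue) and mutant (red), with a line at each group mean and the mouse number given by the symbol. Mutants sit above controls for Ddx25, Ddx11, Ddx39b, Dhx36 and Ddx60 and below for Ddx50, with no overlap in any panel.

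Ddx25, a helicase of male germ cells known for its part in sperm development, had the largest rise of the family. It is read by 1 probe set, at 6.998, 7.29 and 7.04 in mutants and 5.45, 5.78 and 5.00 in controls. The lowest mutant exceeded the highest control by more than the range within either group. The difference was 1.70 (standard error 0.24, 3.25-fold, n = 3 per group, adjusted p = 0.0183 over genes from limma). The Ddx25 controls lay below the medians of all probe sets on their arrays (5.92, 6.03 and 6.12). Control 3 also lay below the lower quartile of its array (5.25), and signal over background is unknown.

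Ddx11, a DNA helicase that acts in sister chromatid cohesion, read 7.37, 7.96 and 7.90 in mutants against 6.27, 6.49 and 6.34 in controls on its brightest probe set. Mutant 1 was the lowest of the mutants and still above every control. The 1.38 difference had a standard error of 0.22 and passed the test (adjusted p = 0.0212 from limma). Its other probe set differed by 0.42 and overlapped between the groups.

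Ddx39b, known as UAP56, acts in spliceosome assembly and in loading the export machinery onto spliced RNA. Its brightest probe set read 11.15, 11.75 and 11.83 in mutants against 10.04, 10.31 and 10.29 in controls. All mutants were higher, by 1.37 on average (standard error 0.23, adjusted p = 0.0247 from limma). The other probe sets differed by 0.62, 0.57 and 0.23, and none of these was called. Ddx39a, its close paralog, showed a different picture. Its brightest probe set differed by 0.24 with overlapping groups. On its other 4 probe sets the mutants lay wholly below the controls, by -0.35 to -0.55, with adjusted p from 0.158 to 0.358 from limma. The names of 3 of those 4 and of the called Ddx39b probe set mark probes that may also read related sequences. The brightest probe sets of Dhx9, Dhx38, Ddx5, Ddx1, Ddx17, Dhx30, Ddx54 and Dhx57 carry such names too. So does the second bright probe set of Ddx5.

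Dhx36 unwinds G-quadruplexes, 4-stranded folds of guanine-rich nucleic acid. It read 9.47, 9.52 and 9.42 in mutants against 8.64, 8.38 and 8.15 in controls on its brightest probe set, a difference of 1.08 (standard error 0.19, adjusted p = 0.0263 from limma). The mutants lay closer to each other than the controls did. A second Dhx36 probe set went the other way, at 6.68, 6.12 and 6.50 in mutants against 6.93, 6.94 and 6.96 in controls (-0.51, adjusted p = 0.18 from limma), so that both groups were separated on both probe sets in opposite directions. The remaining one differed by -0.11 and overlapped.

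Ddx60, an interferon-inducible helicase linked to antiviral sensing, read 5.91, 5.90 and 6.33 in mutants and 5.27, 5.21 and 5.27 in controls. The Ddx60 controls lay near the lower quartiles of all probe sets on their arrays (5.03, 5.14 and 5.25). The 0.80 difference (standard error 0.19) passed over genes (adjusted p = 0.0451 from limma) and not over probe sets (0.0714), nor over genes with median centring (0.0813) or quantile normalization (0.0909). On its other probe set mutant 2 was the lowest of all mice (4.56), the other 5 lay between 5.36 and 5.50, and the difference was -0.27.

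Ddx50, a nucleolar helicase closely related to Ddx21, was the single helicase gene called lower. It read 7.56, 6.74 and 7.22 in mutants against 8.15, 8.51 and 8.35 in controls, and every mutant lay below every control. The difference was -1.17 (standard error 0.25, adjusted p = 0.0355 from limma over genes and 0.0578 over probe sets). Its other probe sets differed by -0.86 and 0.16, with overlapping groups. Ddx21, which acts with RNA polymerase I and in ribosomal RNA processing, read 7.38, 6.42 and 6.80 in mutants against 7.63, 7.53 and 7.51 in controls (-0.69, adjusted p = 0.119 from limma).

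The promoters of the called genes Ddx25, Dhx36, Ddx39b, Ddx60 and Ddx50 are shown so that their base composition can be compared, as RefSeq (GRCm38.p6) gives them in windows of 300 bases around the start of the transcript, 5′ to 3′ on the strand of the gene. Capitals mark GC boxes (GGGCGG) on either strand, and matches may overlap. They also mark the CCAAT box, searched as its name, the TATA box (TATAAA), and the ETS core, whose letters were CCGGAAG. Ddx25 lies on the minus strand at chr9:35558421-35558720, Dhx36 on the minus strand at chr3:62506939-62507238 and Ddx39b on the plus strand at chr17:35241496-35241795. Ddx60 lies on the plus strand at chr8:61927837-61928136, and Ddx50 has 2 windows on the minus strand, the first at chr10:62651169-62651468 and the second at chr10:62649704-62650003.
Ddx25: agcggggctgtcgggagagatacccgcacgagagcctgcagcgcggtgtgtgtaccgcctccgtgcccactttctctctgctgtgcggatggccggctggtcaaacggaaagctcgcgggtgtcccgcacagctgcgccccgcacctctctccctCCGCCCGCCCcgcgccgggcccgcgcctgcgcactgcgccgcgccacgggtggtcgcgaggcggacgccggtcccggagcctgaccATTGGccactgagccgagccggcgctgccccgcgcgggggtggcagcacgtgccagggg
Dhx36: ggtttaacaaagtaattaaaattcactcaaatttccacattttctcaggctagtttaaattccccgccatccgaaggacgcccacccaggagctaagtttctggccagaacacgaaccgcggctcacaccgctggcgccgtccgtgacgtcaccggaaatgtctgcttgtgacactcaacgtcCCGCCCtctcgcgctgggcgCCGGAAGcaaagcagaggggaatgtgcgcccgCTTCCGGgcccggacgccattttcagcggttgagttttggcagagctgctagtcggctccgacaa
Ddx39b: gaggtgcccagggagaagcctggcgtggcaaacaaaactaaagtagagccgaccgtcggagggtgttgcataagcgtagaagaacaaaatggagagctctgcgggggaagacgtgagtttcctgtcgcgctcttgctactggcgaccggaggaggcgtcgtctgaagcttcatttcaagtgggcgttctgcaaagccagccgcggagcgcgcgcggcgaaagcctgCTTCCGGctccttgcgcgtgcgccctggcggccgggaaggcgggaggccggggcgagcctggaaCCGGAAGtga
Ddx60: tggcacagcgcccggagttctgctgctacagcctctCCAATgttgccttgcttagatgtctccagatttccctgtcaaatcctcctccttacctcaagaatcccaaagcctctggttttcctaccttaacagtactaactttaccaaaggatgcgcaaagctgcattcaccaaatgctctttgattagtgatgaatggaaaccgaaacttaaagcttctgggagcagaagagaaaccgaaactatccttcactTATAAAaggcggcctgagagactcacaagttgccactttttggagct
Ddx50, first: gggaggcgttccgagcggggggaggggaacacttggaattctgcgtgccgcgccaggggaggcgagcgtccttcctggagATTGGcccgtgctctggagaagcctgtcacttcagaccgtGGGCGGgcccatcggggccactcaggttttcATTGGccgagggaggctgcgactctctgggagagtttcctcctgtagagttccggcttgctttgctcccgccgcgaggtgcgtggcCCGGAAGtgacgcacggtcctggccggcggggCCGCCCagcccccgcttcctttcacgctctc
Ddx50, second: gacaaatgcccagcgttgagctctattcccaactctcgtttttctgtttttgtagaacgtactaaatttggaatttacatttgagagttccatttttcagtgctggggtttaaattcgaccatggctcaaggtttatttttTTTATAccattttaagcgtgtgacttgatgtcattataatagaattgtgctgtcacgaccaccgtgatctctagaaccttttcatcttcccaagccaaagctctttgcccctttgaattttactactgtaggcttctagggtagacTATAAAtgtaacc
The Ddx25 window is 75% G and C, with 2 overlapping GC boxes and a CCAAT box. Those of Dhx36 and Ddx39b hold 2 ETS cores each, and Dhx36 has a GC box as well. The Ddx60 window differed, at 46% G and C, with a CCAAT box, a TATA box and no GC box or ETS core. The windows of Ddx50 differed from each other, the first at 67.7% G and C with 2 GC boxes, 2 CCAAT boxes and an ETS core, and the second at 38.3% with 2 TATA boxes alone. Over the 54 windows found for 43 of the 48 helicase genes, 38.9% held the ETS core, compared with 11.6% of 21263 windows of protein-coding genes and 8.86% of all 32851 windows. The GC box was in 57.4% of helicase windows against 46.2% of protein-coding ones and 35.7% of all, and the CCAAT box in 48.1% against 38.2% and 37.4%. The TATA box was in 9.26% against 12.6% and 13.6%. The median share of G and C was 60.7% in helicase windows, 56.3% in protein-coding ones and 52.7% in all. A gene can have several windows, which may overlap, and a match describes letters and not a bound site.

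**Figure D2:**
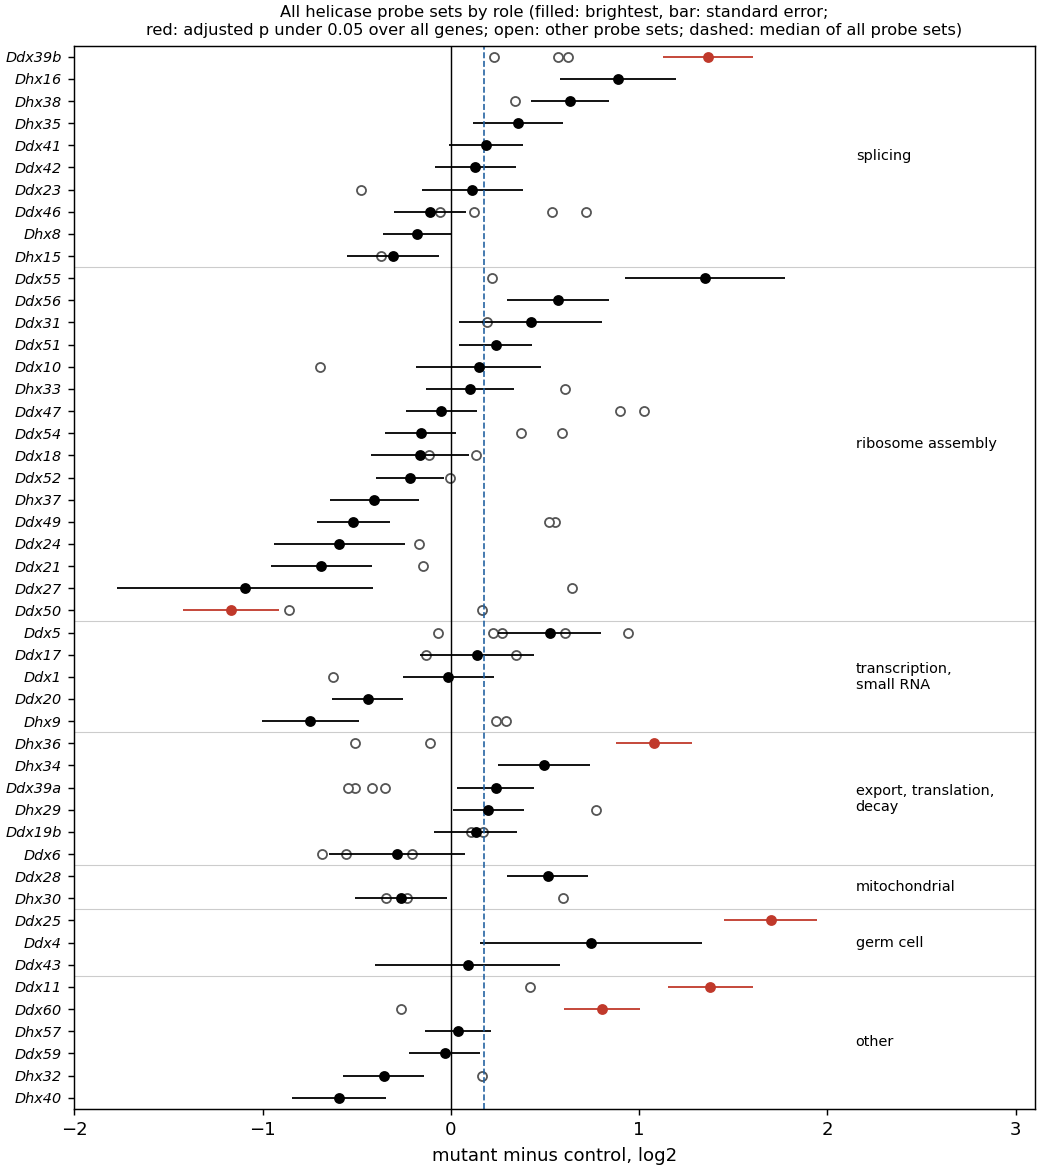
Difference between mutants and controls (log2, horizontal axis) for all 104 helicase probe sets, with 1 row for each of the 48 genes grouped by role. Filled points are the brightest probe set with its standard error from the fit over probe sets (red where called over genes), open points are the other probe sets, and the dashed line is the median of all probe sets at 0.17. Within each of the larger roles the points fall on both sides of 0, and open points of 1 gene often lie on the other side from the filled one.

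Among the helicases that remodel the spliceosome, 1 of 10 genes was called (Ddx39b), and the median difference was 0.16 beside 0.17 over all genes. Dhx38 and Dhx16, helicases of the catalytic steps of splicing, came next in the order of p. Dhx38 read 7.83, 8.28 and 8.12 in mutants against 7.40, 7.32 and 7.61 in controls (0.63, adjusted p = 0.0789 from limma). Dhx16 read 8.35, 9.13 and 9.08 against 8.29, 8.13 and 7.47 (0.89, adjusted p = 0.0944 from limma). Mutants were wholly above controls for both, although mutant 1 was barely above the highest Dhx16 control. Dhx15, which takes the spliceosome apart, differed by -0.31 and -0.37 on its probe sets, with overlapping groups. Dhx8, Ddx23, Ddx41, Ddx42, Ddx46 and Dhx35 lay between -0.18 and 0.35 on their brightest probe sets, and none was called.

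Ribosome assembly is the largest role, with 16 genes, of which Ddx50 was called, and the median difference was -0.16 over the brightest probe sets and 0.12 over all 34 probe sets, so that its sign depended on the probe sets taken. Ddx55, a helicase of the large subunit, read 8.98, 7.93 and 7.18 in mutants against 6.86, 6.77 and 6.40 in controls (1.35, adjusted p = 0.0766 from limma). Mutant 1 stood far above mutants 2 and 3 for this gene. For Ddx27, which acts in formation of the large subunit RNA, mutant 1 read 8.80 and mutants 2 and 3 read 6.28 and 5.91, against 8.12, 7.89 and 8.25 in controls. Mutant 1 was thus the highest of all mice and the other mutants the lowest, and the difference of -1.09 had a standard error of 0.67. The other Ddx27 probe set was separated the opposite way, at 6.31, 6.10 and 6.70 in mutants against 5.93, 5.65 and 5.61 in controls (0.64, adjusted p = 0.136 from limma). Ddx24 had a like split on its brightest probe set, with mutant 1 at 8.52, mutants 2 and 3 at 7.32 and 7.28 and controls between 8.19 and 8.52. For Ddx49 the brightest probe set was lower in all mutants (-0.52) and another higher in all mutants (0.55), neither called. Ddx47 differed by -0.05 on its brightest probe set and by 0.90 on another, on which mutants (6.97, 6.997 and 7.43) lay above controls (6.12, 6.43 and 6.16) at an adjusted p of 0.0667 from limma. Ddx10, Ddx18, Ddx31, Ddx51, Ddx52, Ddx54, Ddx56, Dhx33 and Dhx37 differed by -0.41 to 0.57 on their brightest probe sets.

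None of the 5 helicases of transcription and small RNA processing was called. Dhx9, known as RNA helicase A, had the smallest p of these by the brightest probe set and read 7.69, 7.08 and 7.77 in mutants against 8.002, 8.27 and 8.51 in controls (-0.75, adjusted p = 0.0908 over genes from limma). All mutants were lower, whereas on its other probe sets the differences were 0.29 and 0.24 with overlap. Ddx20, which binds the SMN complex that builds spliceosomal particles, read 6.30, 6.53 and 6.54 against 6.89, 6.81 and 7.01 (-0.44, adjusted p = 0.14 from limma). Ddx1 and Ddx17 differed by -0.01 and 0.14 on their brightest probe sets. Ddx5, or p68, which acts with Ddx17 as a cofactor of transcription and of microRNA processing, has 6 probe sets. The brightest read 10.95, 11.71 and 11.91 in mutants against 11.00, 11.04 and 10.96 in controls (0.52, adjusted p = 0.222 from limma). A bright second one read 10.74, 11.41 and 11.67 against 10.40, 10.43 and 10.17 and separated the groups (0.94, adjusted p = 0.0913 over probe sets from limma).

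Of the 6 genes of export, translation and decay, Dhx36 was called. Ddx6, a helicase of P-bodies that represses translation and aids decapping, differed by -0.29, -0.20, -0.69 and -0.56 on its 4 probe sets. On the third of these the mutants read 6.98, 6.48 and 7.35 and the controls 7.64, 7.72 and 7.50, with no overlap (adjusted p = 0.148 from limma). Dhx29, which helps small ribosomal subunits scan structured leaders, differed by 0.20 on its brightest probe set. On the other, mutants read 6.42, 6.56 and 6.27 and controls 5.65, 5.63 and 5.66 (0.77, adjusted p = 0.0662 from limma), so that the groups were well separated there. Dhx34, a factor of nonsense-mediated decay, and Ddx19b, which releases exported RNA at the nuclear pore, differed by 0.49 and 0.13.

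Mitochondrial helicases were of interest because coenzyme Q works in that organelle, and neither gene was called. Ddx28, a helicase of mitochondrial ribosome assembly, read 7.33, 7.12 and 7.31 in mutants against 6.67, 6.50 and 7.05 in controls (0.51, adjusted p = 0.139 from limma). Mutant 2, the lowest mutant, was just above control 3, the highest control. Dhx30, which acts at mitochondrial RNA granules, differed by -0.27 on its brightest of 4 probe sets, by -0.24 and -0.35 on a further pair, and by 0.60 on the last, where mutants (6.95, 7.59 and 7.83) lay above controls (6.91, 6.91 and 6.75).

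Among the germ cell helicases besides Ddx25, Ddx4, or Vasa, read 3.72, 3.02 and 3.48 in mutants and 3.27, 3.55 and 1.16 in controls, and Ddx43 read 4.19, 5.31 and 4.07 against 4.15, 3.74 and 5.41. Both overlapped between the groups. Every value of both genes lay below the lower quartile of all probe sets on its array, apart from Ddx43 in control 3. Of the 6 remaining genes Ddx11 and Ddx60 were called. Dhx40 differed by -0.60 (adjusted p = 0.141 from limma) and Dhx32 by -0.36, and Ddx59 and Dhx57 by -0.03 and 0.04.

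Probe sets of the same gene frequently disagreed. Of the 31 helicase genes with several probe sets, 17 (54.8%) had differences of both signs, close to 50.8% of 9010 such genes on the whole array. The widest spreads were those of Ddx27 (-1.09 to 0.64) and Dhx36 (-0.51 to 1.08).

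**Figure D3:**
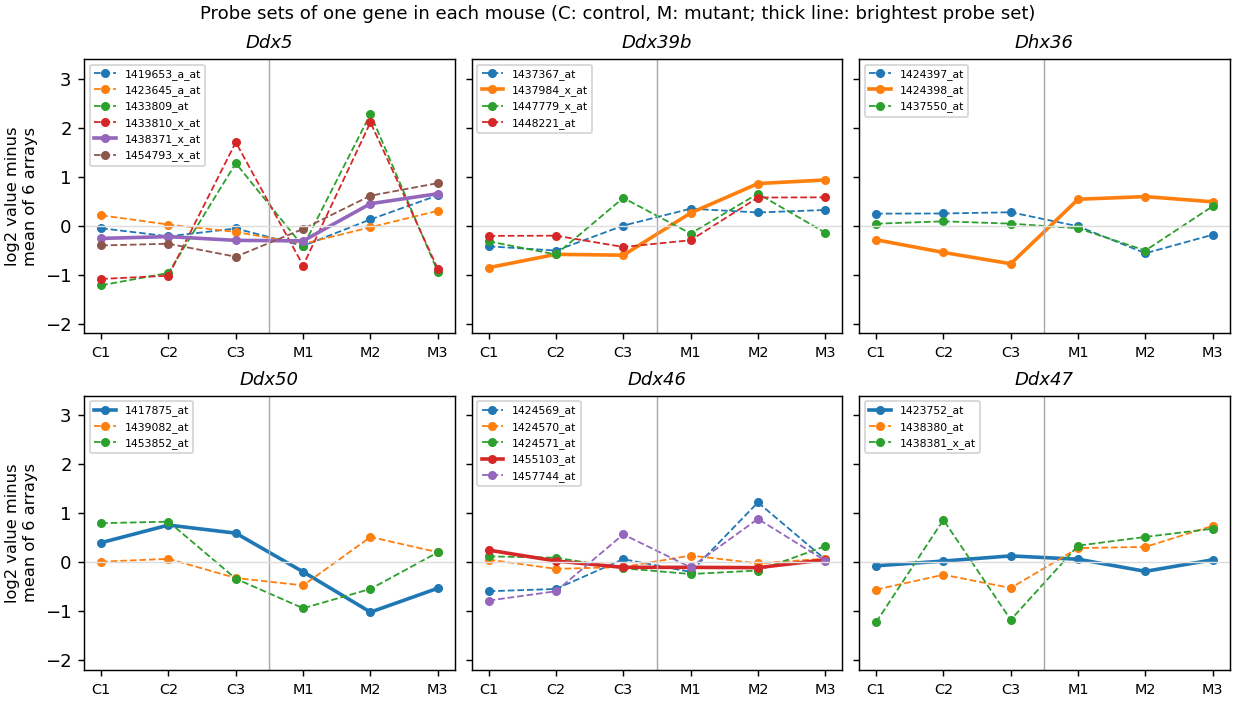
Log2 value minus the mean of the 6 arrays (vertical axis) for each probe set of Ddx5, Ddx39b, Dhx36, Ddx50, Ddx46 and Ddx47 in controls 1 to 3 (C1 to C3) and mutants 1 to 3 (M1 to M3). The thick line is the brightest probe set, lines only join the points of 1 probe set, and a pair of Ddx5 probe sets peaks in control 3 and mutant 2.

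Some of the largest differences between mice did not follow genotype. On a pair of Ddx5 probe sets, mutant 2 read 10.02 and 9.27 and control 3 read 9.01 and 8.86. The other mice lay between 6.52 and 7.31 on the first and between 6.07 and 6.34 on the second. Mutant 2 thus exceeded the mean of mutants 1 and 3 by 2.96 on both, and control 3 the mean of controls 1 and 2 by 2.37 and 2.76, while the brightest Ddx5 probe set hardly varied among the controls (SD 0.04, n = 3). The same mice were high together on 2 of the 5 Ddx46 probe sets, on which mutant 2 read 8.47 and 6.14 and control 3 read 7.31 and 5.83, on the Ddx43 probe set and on 1 of the 2 of Ddx31. In all, both exceeded the rest of their group by over 0.5 on 11 of 104 helicase probe sets (10.6%, against 12.8% of all probe sets) and fell below it by as much on 2 (1.92%, against 4.89%). These mice also had the highest signal on the bacterial transcripts Dap, Lys, Phe and Thr, at 5.55 and 5.13 against 4.42 to 4.90 in the others, and the part of this in the helicase values was not tested. Without mutant 2 and control 3, no helicase gene was called (11 had an unadjusted p under 0.05), where 51 of all 18193 genes were, and the smallest adjusted p was 0.0535 from limma, that of Ddx25 with a difference of 1.40.

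**Figure D4:**
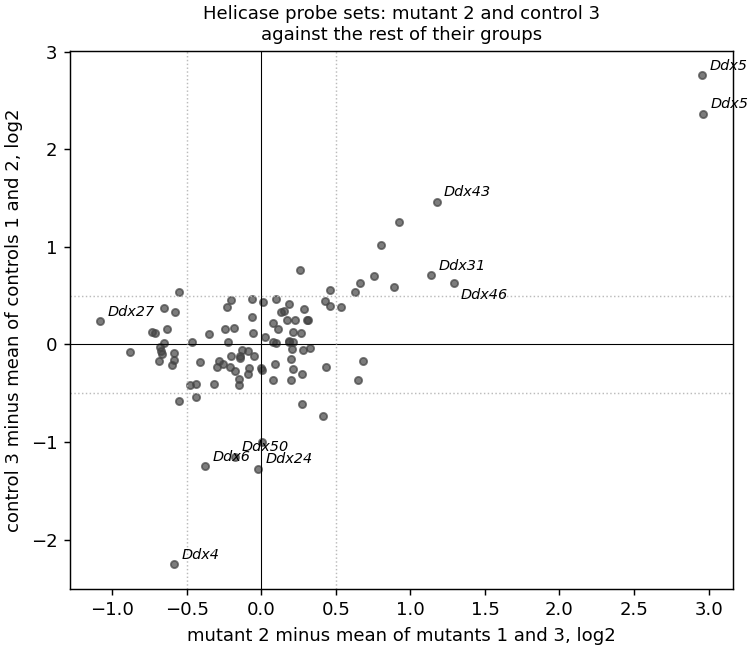
Mutant 2 minus the mean of mutants 1 and 3 (horizontal axis, log2) against control 3 minus the mean of controls 1 and 2 (vertical axis, log2), with 1 point for each of the 104 helicase probe sets and dotted lines at 0.5 and -0.5. A pair of Ddx5 probe sets lies alone at the upper right, at 2.96 on the horizontal axis.

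Partner genes of the same processes were examined, each by its brightest probe set, from lists of genes that work with the helicases. Over all 18193 genes, 4.92% were called higher and 4.11% lower. Of 17 RNA helicases with other symbols, Upf1, the helicase of nonsense-mediated decay, was lower (-1.45, adjusted p = 0.0159 from limma), and none was higher. Ighmbp2 followed (0.79, adjusted p = 0.054 from limma). The translation helicases Eif4a1 and Eif4a2 differed by 0.11 and -0.66 and Eif4a3, of the exon junction complex, by 1.11, and none of them was called. Of 26 spliceosome partners, 2 were higher, Sf3b1 (1.69) of the branch point complex and Xab2 (1.09), and 2 were lower, Cdc40 (-1.62) and Syf2 (-0.96). The median over these genes was -0.25, with 20 below 0, beside 0.17 over all genes. Over the 62 probe sets of the list, 1 was called higher and 1 lower, and the median was -0.02. Of 33 ribosome assembly genes, 3 were higher, Pes1 (0.92), Wdr43 (0.72) and Ebna1bp2 (0.86), and 2 were lower, Ncl, which encodes nucleolin (-1.34), and Wdr12 (-0.76). Wdr43, Ebna1bp2 and Wdr12 passed narrowly (adjusted p = 0.0459, 0.0489 and 0.0499 from limma). Over the 69 probe sets of the list, 2 were called higher and 1 lower. The call of Pes1 was lost with median centring (adjusted p = 0.0874 from limma) and quantile normalization (0.0607). Of 17 genes of export and the exon junction, 4 were higher, namely Thoc2 (1.86) and Thoc5 (0.88) of the THO complex, which recruits Ddx39b to RNA, and the export receptor subunits Nxf1 (1.40) and Nxt1 (1.13). Ncbp2, which binds the cap (-1.37), and the exon junction protein Rbm8a (-1.45) were lower. Over the 42 probe sets of this list, 3 were called higher and 2 lower, and the median difference was -0.04. Of 26 genes of P-bodies and decay Smg1, the kinase that acts on Upf1, was higher (1.15, adjusted p = 0.0478 from limma, and 0.0687 with median centring). Over the 61 probe sets of this list, none was called higher and 1 was called lower. Dcp2, the decapping enzyme, had a difference of -0.67 (adjusted p = 0.0544 from limma, and 0.0431 with median centring). None of 18 genes of small RNA processing and the SMN complex was called, and the smallest p were those of Fam98b (-1.20, adjusted p = 0.0536 from limma) and Xpo5 (0.70, adjusted p = 0.057 from limma). By their names, the probe sets of Ighmbp2, Xab2, Ncl, Ebna1bp2, Ncbp2 and Xpo5 may also read related sequences.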

How the data were processed

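Affymetrix mouse arrays measured liver RNA of 3 mutants and 3 controls, with groups from the labels. Probe data were normalized by the authors in dChip and summarized with its perfect-match model into deposited log2 values, 1 per probe set and array. The sources used here do not give the dChip version or baseline array, and without detection calls the signal over background is unknown. The study's methods name a C. elegans array, whereas the probe sets carry names of a mouse array. The values were tested as deposited with limma 3.58.1 (lmFit and eBayes, R 4.3.3), over 45037 probe sets (64 controls of the array left out) and over 18193 genes, each by its brightest probe set, that with the highest mean over the arrays. Gene symbols came from the platform annotation. The smallest two-sided p of an exact permutation test of 3 mice against 3 is 0.1, so the number of arrays sets the precision. The scripts were tested on simulated data.

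The helicases and lists were chosen with earlier results of these data known. Genes were named by rule: called probe sets without overlap of the groups, the smallest p of each role, all mitochondrial and germ cell members, Pdss2, Actb and the Eif4a genes, the smallest p of each list, and members of counts of 5 or fewer. Other helicases were named after their values were seen. Sequences are those of RefSeq, with the printed windows matched by symbol and the windows of the family by gene ID. No window is shown for Ddx11. Alternatives were median centring, quantile normalization, the bright probe sets, eBayes with trend and robust options, age as a covariate, a replicate block, the mean of the probe sets of a gene, no s and x probe sets, and leaving out each mouse. Leaving out mutant 2 and control 3 together was chosen after seeing the data.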

Additional observations from a re-analysis of the deposited data

How the results depend on the processing

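The precision is limited by 3 arrays a group, and signal over background is unknown. The 4 helicase probe sets called became 0 with median centring (29 at an unadjusted p under 0.05), 2 without s and x probe sets, 0 without mutant 2 and control 3 (21 unadjusted), and 0 to 9 when 1 mouse was left out. The 9 came without mutant 1, with 3840 of 45037 in all, and leaving out any of the other mice gave 0 (12 to 22 unadjusted), with 0 to 3 in all. The 6 genes called became 1 with the mean of the probe sets of each gene, namely Ddx25, whose 1 probe set leaves its values unchanged there. They became 0 without mutant 2 and control 3 (11 unadjusted), and 0 to 13 when 1 mouse was left out. The count was 13 without mutant 1 (8 higher and 5 lower), 1 without control 3 (Ddx25) and 0 without each of the others (9 or 10 unadjusted). All other settings but the replicate block gave 3 to 6 probe sets and 5 or 6 genes. The median difference of 0.13 was 0.037 in bright probe sets, -0.0312 with median centring, 0.0155 with quantile normalization and 0.0397 to 0.197 when 1 mouse was left out.

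The mice share replicate numbers only by name: deviations from the group means correlated at 0.061, -0.503 and -0.56 for mice of the same number. The labels name control 1 as concurrent with mutant 3, a tie of 1 pair that no fit used. That pair correlated at 0.453, and mutant 3 with control 2 at 0.401. The highest correlation was that of mutant 2 with control 3, at 0.617. With the replicate block, 0 helicase probe sets and 0 genes were called by limma (16 and 12 unadjusted), as were 0 of all probe sets and genes.

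The sign of Ddx4 turned without control 3 (-0.0065, and up to 1.19 when another mouse was left out), that of Ddx43 with median centring (-0.0733), quantile normalization (-0.0883) and on leaving out single mice (-0.30 to 0.577), that of Actb with median centring (-0.10) and quantile normalization (-0.045), and that of Eif4a1 with median centring (-0.0563) and without mutant 1 (-0.0172, and up to 0.249 when another mouse was left out). For Pdss2, median centring gave -0.70 (adjusted p = 0.048 from limma). The causes were not tested. Some of the named genes were counted over these settings, with Ddx4, Ddx43, Actb and Eif4a1 among them and Pdss2 left out. Of their pairs of gene and setting, 231 kept their direction and side of the threshold, 92 no longer passed, 15 newly passed and 10 turned.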
